A study of Homo sapiens with 28 samples.

Results

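Interferon-stimulated genes and the STAT and IRF factors that drive them were examined in LNCaP, a human prostate cancer cell line that responds to androgen. The set holds 54 genes, chosen by symbol as known members of the pathway, of the 61815 human genes in the count table, and all 54 were found. The choice was made with earlier results of these data known. Before treatment, the cells of every group spent 72 h in charcoal-stripped serum, from which steroids have been removed. At 24 h the groups were vehicle (0.1% DMSO), Senexin B at 1 µM, the synthetic androgen R1881 at 0.1 nM, and R1881 together with Senexin B, with 3 libraries each. At 72 h they were vehicle, SNX631 at 500 nM, R1881 at 1 nM, and R1881 together with SNX631, with 4 libraries each. Doses are those of the labels, and the text of the study gives another dose for Senexin B. Senexin B and SNX631 inhibit CDK8 and CDK19, the kinases of the Mediator kinase module, and the study describes them as chemically unrelated. Time, inhibitor, androgen dose and experiment differed together, so the 2 experiments are given side by side and were not compared. LNCaP is a single cell line. The study calls its RNA-seq replicates biological, and neither it nor the labels say whether they were separate cultures, so p-values measure the spread between these libraries.

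Type I and type II interferons bind cell surface receptors whose JAK kinases phosphorylate STAT proteins. STAT2, together with IRF9 and a STAT partner, forms a complex that binds a short DNA element, the interferon-stimulated response element (ISRE), in the promoters of many antiviral genes. Cells also keep a low level of these genes running without added interferon, and no interferon was among the treatments listed here. CDK8 has been described as one of the kinases that phosphorylate STAT proteins in the nucleus.

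The libraries held from 9846595 to 33809419 counts, with the highest total in vehicle 24 h replicate 3 and at most 15248512 in the others. All 7 markers of luminal prostate epithelium were expressed, with a summed level of 2492 to 4681 counts-per-million (CPM). Of 5 leukocyte markers, CD3E was at 0 in every library, PTPRC, CD14 and ITGAM had at most 3 counts, and LYZ had at most 14, for a summed level of 0.0847 to 0.7 CPM. The plasmacytoid dendritic cell markers CLEC4C and LILRA4 were at 0, and the endothelial markers PECAM1 and CDH5 had at most 2. Of 3 genes listed as fibroblast markers, COL1A1 was called lower in all 4 inhibitor contrasts and COL3A1 higher in 3. PDGFRB was called lower with SNX631 at 72 h without R1881, so the 3 genes did not move together. Their summed level spanned 10.2 to 37.6 CPM. Their part in the results below was not tested.

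The 54 genes together took only 0.0882 to 0.12% of the counts of a library. Per kilobase of exon, the highest mean levels over all libraries were those of ADAR, an RNA-editing enzyme that marks cellular double-stranded RNA as self, at 39.6 CPM per kb, ISG15, a ubiquitin-like modifier, at 36.4, and IFITM3, which blocks viral entry at endosomes, at 23.2. TRIM25, an E3 ligase for RIG-I and ISG15, followed at 15.2 CPM per kb, and STAT2 stood at 12.9. Several classical antiviral effectors were near the bottom of the scale. OAS2, MX2, PLSCR1, GBP1, SAMD9L and XAF1 were at the floor, here 3 counts or fewer in every one of the 28 libraries, so a response was not detectable at this depth. IFIT3, TRIM22, PARP14, IFITM1, BST2, SAMD9, IFI27 and EPSTI1 exceeded the floor in some libraries but did not pass the filter on low counts in either experiment, with at most 7 counts for TRIM22 and at most 30 for BST2. Of the remaining 40 genes, 36 were tested in both experiments. SOCS1 and OASL were tested at 72 h only and OAS1 and IFI44L at 24 h only, so that 38 were tested in each. A gene can pass the filter through the 1 group in which it is high.

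**Figure D1:**
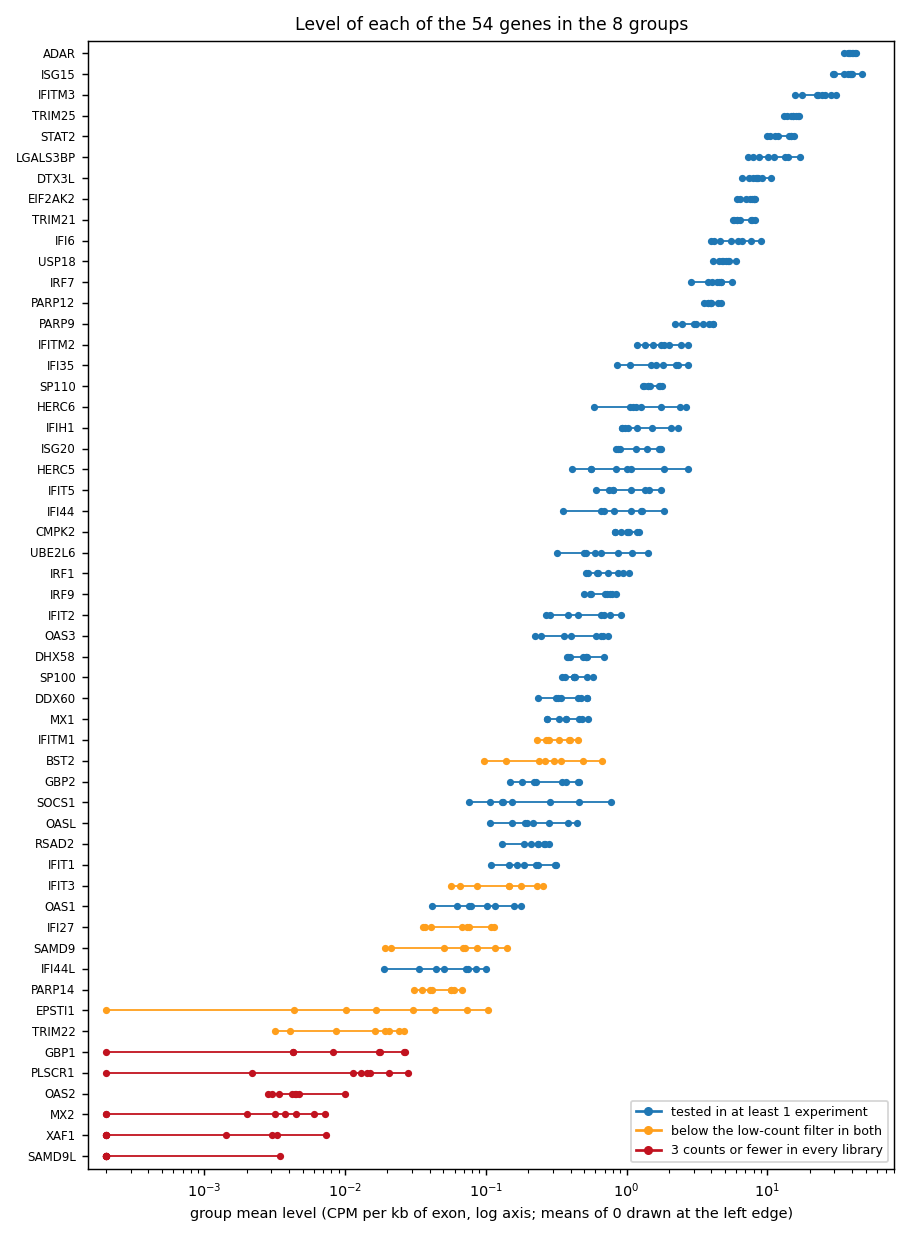
Group mean level of each of the 54 genes in CPM per kilobase of exon (log axis), with 1 point per group and a line from the lowest to the highest of the 8 groups. ADAR, ISG15 and IFITM3 lie at the top, and the 6 genes in red held 3 counts or fewer in every library.

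The first question was how inhibition of CDK8 and CDK19 changed these genes. Genes were called at a false discovery rate (FDR, edgeR quasi-likelihood test, adjusted over all genes tested) under 0.01 with a fold change over 1.5. In all 4 contrasts calls went down and none went up. Without R1881, 7 of 38 tested genes fell at 24 h with Senexin B, where 1.77% of all genes tested were called lower. With SNX631 at 72 h, 9 of 38 fell, where 1.94% of all genes were called lower. In the presence of R1881, 4 of 38 fell at 24 h, with 1.5% of all genes called lower, and 5 of 38 fell at 72 h, with 2.24%. No gene of the set was called higher in these 4 contrasts, in which 2.02, 2.82, 1.61 and 1.89% of all genes were called higher in the same order. The called shares of the set, all lower, were 18.4, 23.7, 10.5 and 13.2%. Because the set was chosen with earlier results known, these shares beside those of all genes are a description and not an independent test. The Wald test of DESeq2 also called none higher. At an unadjusted p under 0.05 in edgeR, 22, 23, 15 and 20 of 38 were lower and 3, 1, 2 and 3 higher. Shares of all genes at this limit are not given.

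Over all tested genes, the called ones included, the set leaned downward. The median log2 fold change of the tested genes was -0.33 at 24 h and -0.32 at 72 h without R1881, and -0.26 and -0.22 with R1881, beside medians of all genes between -0.01 and 0.01. Estimates below 0 numbered 32 and 33 of 38 without R1881, beside 49.9 and 49.5% of all genes, and 28 and 32 with it, beside 48 and 50.8%. All inhibitor libraries lay below all control libraries for 20 of 38 genes at 24 h and 18 at 72 h without R1881, and for 16 and 15 with it. Over all genes tested these shares were 22.3, 15.4, 19.5 and 17.8%. They lay above their controls for 3, 0, 1 and 3 genes of the set, and for 23.5, 17.6, 22.6 and 19.9% of all genes. Summed over all 54 genes, the level was 1123 ± 8.79 CPM (SD, n = 3) with vehicle and 1005 ± 12.2 with Senexin B at 24 h. At 72 h it was 1132 ± 12.4 CPM (SD, n = 4) with vehicle and 1011 ± 28.4 with SNX631. In the presence of R1881 it was 1040 ± 5.69 without and 959 ± 14.0 with Senexin B, and 1034 ± 7.67 without and 950 ± 27.7 with SNX631. ADAR, which was not called in any contrast, was the largest single part of these sums. The 11 genes called lower in at least 1 inhibitor contrast made up 33.4 and 35.7% of the difference in the sum without R1881 at 24 h and 72 h, and 44.3 and 50.7% with it. The rest came from genes that were not called, among them ADAR at -24.9 CPM and LGALS3BP at -13.7 CPM at 24 h without R1881. In bulk RNA, fewer cells expressing a gene and less RNA per cell cannot be told apart.

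**Figure D2:**
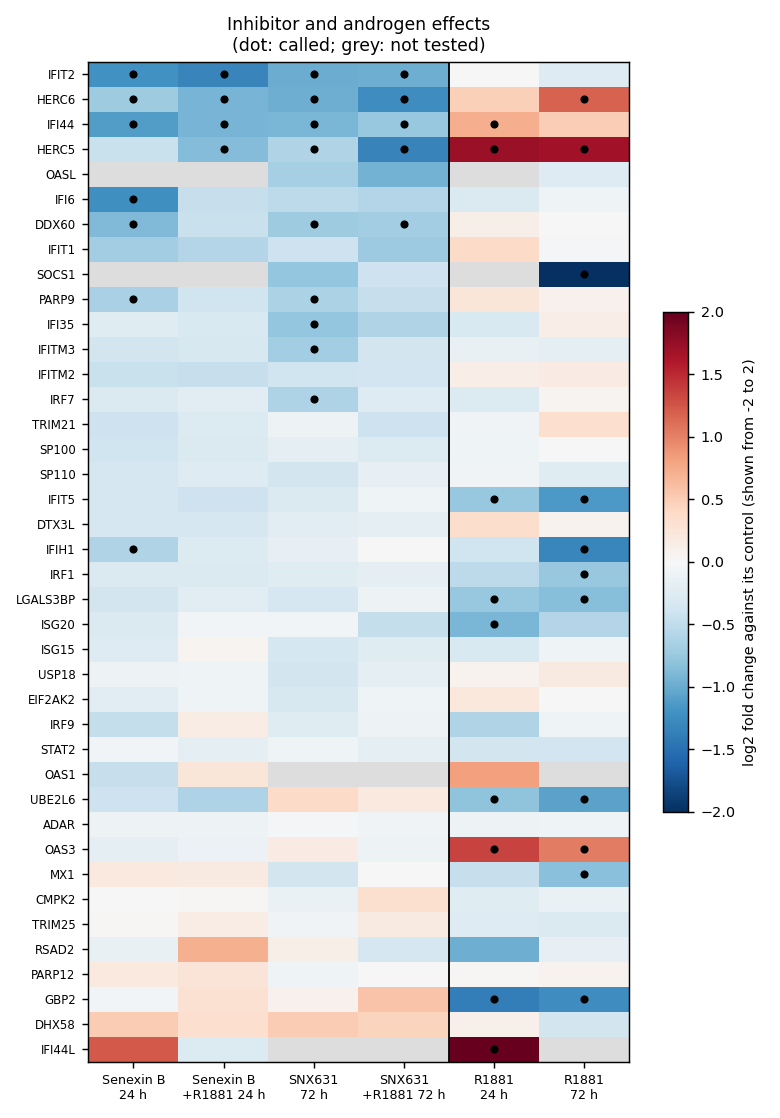
Log2 fold change of each tested gene for the 4 inhibitor contrasts (left of the line) and R1881 alone (right), drawn from -2 to 2, with a dot where the gene was called and grey where it was not tested. All dots in the first 4 columns are on genes that fell, and those for R1881 lie in both directions. For R1881, SOCS1 at 72 h and IFI44L at 24 h lie beyond the colour scale.

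The 11 called genes differed in how many contrasts called them. IFIT2, IFI44 and HERC6 fell in all 4. DDX60 and HERC5 fell in 3, and PARP9 in both contrasts without R1881. IRF7, IFITM3, IFI35, IFIH1 and IFI6 fell in 1 each. Of the 3 highest genes of the set per kilobase, only IFITM3 was called. Mean levels of the called genes ran from 0.403 CPM per kb for DDX60 to 23.2 for IFITM3.

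IFIT2 binds viral RNA and blocks its translation, and its annotation overlaps LIPA on the other strand. At 24 h it was at 3.29, 2.68 and 2.50 CPM in the vehicle libraries and at 0.812, 1.16 and 1.52 with Senexin B. With R1881 it was at 2.30, 2.91 and 2.94 CPM without and at 1.36, 1.34 and 0.625 with Senexin B. Every library with the inhibitor was below every library without it. At 72 h the vehicle libraries were at 4.0, 3.66, 3.95 and 3.28 CPM and those with SNX631 at 1.40, 2.00, 1.92 and 2.13. With R1881 they were at 3.66, 3.40, 2.32 and 3.07 CPM without and at 1.60, 1.71, 1.72 and 1.25 with SNX631. Again the groups did not overlap. The log2 fold change was -1.22 ± 0.25 (SE, edgeR FDR 0.000208) and -1.32 ± 0.28 (FDR 0.00041) at 24 h without and with R1881. At 72 h it was -0.99 ± 0.17 (edgeR FDR 1.63e-05) and -0.97 ± 0.19 (FDR 4.33e-05).

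HERC6 is a HECT-type ubiquitin ligase, the closest relative of HERC5. It stood at 10.0, 10.9 and 9.70 CPM with vehicle and at 6.72, 5.89 and 5.87 with Senexin B. With R1881 at 24 h the values were 13.8, 13.9 and 14.3 CPM, and with both agents 8.13, 5.73 and 8.04. The inhibitor libraries lay below their controls in each case. At 72 h vehicle gave 7.22, 5.95, 6.69 and 7.18 CPM and SNX631 gave 3.41, 2.92, 4.40 and 2.90. R1881 gave 15.2, 13.4, 16.6 and 15.8 CPM, and R1881 with SNX631 gave 6.15, 6.29, 7.84 and 5.42. The R1881 libraries were the highest of the experiment, and those with both agents spanned the range of the vehicle libraries. The inhibitor effect was -0.71 ± 0.11 (edgeR FDR 9.21e-06) and -0.92 ± 0.11 (FDR 1.54e-07) on the log2 scale at 24 h. At 72 h it was -0.98 ± 0.14 (edgeR FDR 5.67e-07) without and -1.24 ± 0.10 (FDR 1.38e-12) with R1881.

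HERC5 is the main ligase that attaches ISG15 to newly made proteins. Its gene lies on chromosome 4 (GRCh38, 88457117 to 88506163, plus strand), next to HERC6 (88378739 to 88443111, plus strand), and their annotations do not overlap. Vehicle libraries at 24 h were at 3.00, 2.26 and 2.67 CPM and Senexin B libraries at 1.77, 2.41 and 1.68. With R1881 the values were 9.18, 10.9 and 6.22 CPM, and with both agents 5.34, 4.59 and 4.37. Groups overlapped without R1881 and did not overlap with it. At 72 h vehicle gave 3.92, 3.59, 4.12 and 4.53 CPM and SNX631 gave 2.10, 2.77, 2.8 and 2.98. R1881 gave 13.4, 13.3, 13.3 and 12.1 CPM, and R1881 with SNX631 gave 5.27, 4.86, 5.43 and 4.91. The inhibitor effect on HERC5 was -0.44 ± 0.23 (edgeR FDR 0.143, not called) at 24 h without R1881 and -0.87 ± 0.17 (FDR 0.000113) with it, both on the log2 scale. At 72 h the changes were -0.59 ± 0.14 (edgeR FDR 0.00115) and -1.34 ± 0.10 (FDR 2.33e-14).

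HERC5 was also the only gene of the set with a called interaction, where 0.821% of all genes tested at 72 h were called lower and 0.373% higher. SNX631 lowered it more in the presence of R1881 than without it, by a further -0.75 ± 0.18 on the log2 scale (edgeR FDR 0.00285). This call was lost without vehicle 72 h replicate 2 (-0.69, FDR 0.0109), without SNX631 72 h replicate 3 (-0.72, FDR 0.0107) and without SNX631 72 h replicate 4 (-0.69, FDR 0.0155), and in the Wald test of DESeq2 (-0.75, FDR 0.0129). At 24 h the same difference was -0.43 ± 0.29 (edgeR FDR 0.5), and no gene of the set was called there, where 0.332 and 0.245% of all genes were called lower and higher. At an unadjusted p under 0.05 in edgeR, 2 genes of the set were lower and 5 higher at 24 h. Shares of all genes at this limit are not given. IFITM3, EIF2AK2 and TRIM25 had interactions at 72 h of 0.34 ± 0.08 (edgeR FDR 0.00274), 0.23 ± 0.06 (FDR 0.00421) and 0.25 ± 0.04 (FDR 6.1e-05), all under the fold limit.

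IFI44 encodes a cytoplasmic protein that assembles into aggregates after infection. At 24 h it was at 1.69, 1.98 and 1.34 CPM with vehicle and at 0.886, 0.498 and 0.762 with Senexin B. With R1881 it was at 2.11, 2.82 and 2.85 CPM without and at 1.69, 0.955 and 1.41 with Senexin B. The groups did not overlap in either setting. The 72 h values were 2.00, 3.28, 2.49 and 2.81 CPM with vehicle and 1.22, 1.15, 2.32 and 0.937 with SNX631. With R1881 it was at 4.29, 3.81, 3.65 and 3.34 CPM without and at 2.00, 1.71, 2.34 and 2.78 with SNX631. Without R1881 at 72 h the groups overlapped, because SNX631 replicate 3 lay above vehicle replicate 1. The log2 fold changes were -1.11 ± 0.30 (edgeR FDR 0.00409), -0.92 ± 0.26 (FDR 0.00655), -0.91 ± 0.23 (FDR 0.00153) and -0.76 ± 0.19 (FDR 0.00115).

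**Figure D3:**
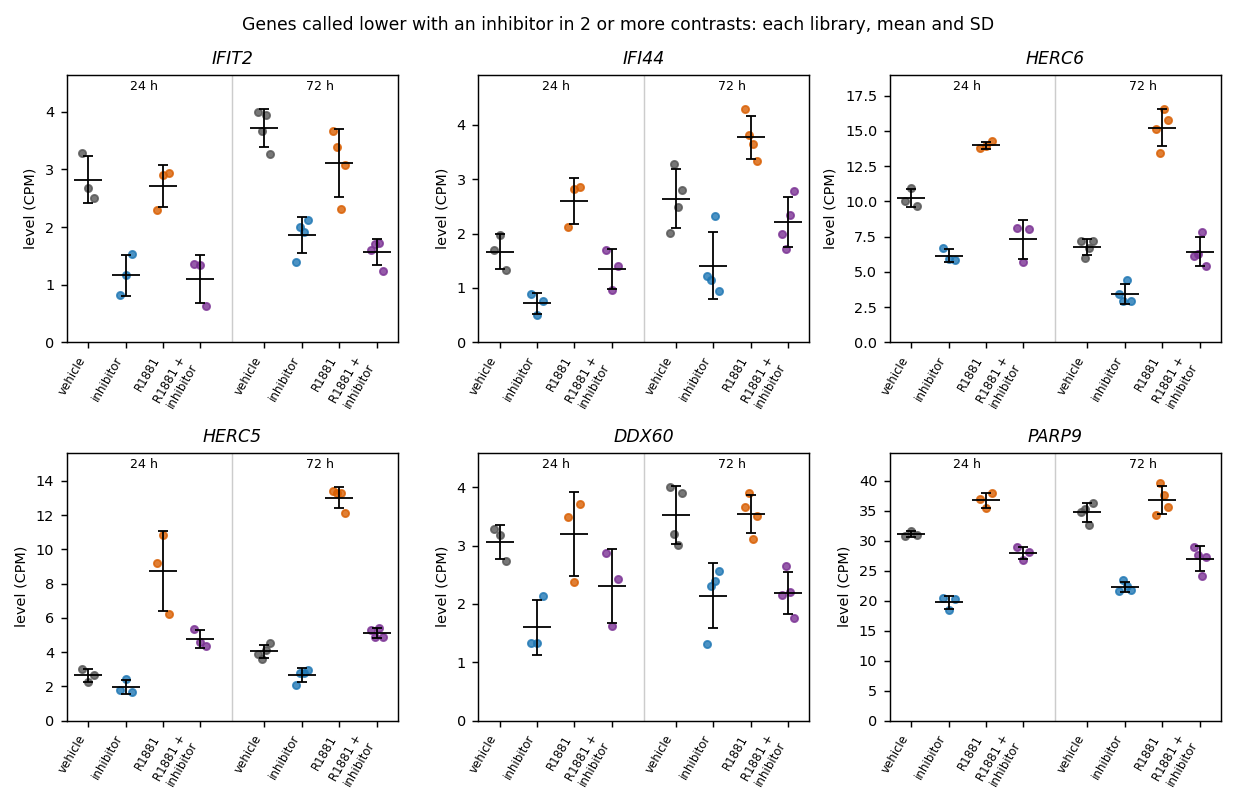
Level in CPM of the 6 genes called lower in 2 or more inhibitor contrasts, with 1 point per library and bars for the mean and SD of each group (3 libraries at 24 h, 4 at 72 h). The inhibitor is Senexin B at 24 h and SNX631 at 72 h. HERC5 rises with R1881 from a mean of 4.04 to 13 CPM at 72 h and stands at 5.12 CPM when SNX631 is also present.

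DDX60, an RNA helicase that assists RIG-I-like receptors, was at 3.29, 3.18 and 2.73 CPM with vehicle and at 1.33, 1.33 and 2.13 with Senexin B. After 72 h it was at 4.0, 3.21, 3.00 and 3.90 CPM with vehicle and at 1.31, 2.31, 2.40 and 2.55 with SNX631. The inhibitor libraries lay below vehicle at both times, with log2 fold changes of -0.88 ± 0.23 (edgeR FDR 0.0026) and -0.71 ± 0.18 (FDR 0.00156). With R1881 the 24 h values were 3.49, 2.38 and 3.72 CPM without and 2.88, 1.62 and 2.42 with Senexin B, and these overlapped (log2 -0.45 ± 0.23, edgeR FDR 0.137). At 72 h R1881 gave 3.66, 3.90, 3.12 and 3.51 CPM, and R1881 with SNX631 gave 2.16, 2.64, 2.20 and 1.76. These did not overlap, and the log2 fold change was -0.69 ± 0.18 (edgeR FDR 0.0014).

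PARP9 forms a complex with the ubiquitin ligase DTX3L and was the most abundant of the 6 per kilobase, with a mean of 3.32 CPM per kb. At 24 h it was at 30.7, 31.7 and 30.9 CPM with vehicle and at 20.4, 18.5 and 20.3 with Senexin B. At 72 h it was at 34.7, 35.3, 32.6 and 36.2 CPM with vehicle and at 21.7, 23.4, 22.4 and 21.7 with SNX631. The replicates were tight and far apart between groups, with log2 fold changes of -0.65 ± 0.06 (edgeR FDR 6.32e-10) and -0.64 ± 0.06 (FDR 4.84e-11). With R1881 PARP9 was at 36.9, 35.5 and 38.0 CPM at 24 h, and at 28.9, 26.8 and 28.2 with both agents. At 72 h these were 34.3, 39.5, 37.6 and 35.6 CPM, and 29, 27.6, 24.1 and 27.3. Here too no library overlapped, but the log2 fold changes of -0.39 ± 0.06 (edgeR FDR 8.25e-06) and -0.45 ± 0.06 (FDR 2.65e-08) were under the fold limit. PARP9 and DTX3L share an overlap on opposite strands. DTX3L moved by -0.33, -0.34, -0.22 and -0.20 in the 4 contrasts and was not called. Whether counting used strand is not given in the sources used here.

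The 5 genes called in 1 contrast included a transcription factor. IRF7, which drives the amplifying wave of interferon transcription, fell with SNX631 at 72 h from 11.5 ± 1.11 (SD, n = 4) to 7.50 ± 0.252 CPM (log2 -0.62 ± 0.09, edgeR FDR 8.87e-07). IFITM3 fell in the same contrast from 34.7 ± 1.25 to 21.4 ± 0.48 CPM (log2 -0.70 ± 0.06, edgeR FDR 5.44e-13). IFI35 was also called there, at -0.78 ± 0.24 (edgeR FDR 0.00955), although its groups overlapped. IFIH1, which encodes the RNA sensor MDA5, fell at 24 h without R1881 from 7.77 ± 1.48 (SD, n = 3) to 5.20 ± 0.507 CPM (log2 -0.61 ± 0.14, edgeR FDR 0.00103). IFI6 fell in that contrast from 7.85 ± 0.897 to 3.45 ± 0.32 CPM (log2 -1.23 ± 0.15, edgeR FDR 5.56e-08), the lowest log2 value of the set there. In the other 3 contrasts IFI6 was at -0.46, -0.53 and -0.58. Its counts were fractional in 46.4% of libraries, so some reads were counted in part. What those reads were shared with is not given.

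By role, the falls were spread over all 6 classes. Among the 14 RNA sensors, 2-5A enzymes and RNA-binding antivirals, 3 and 1 of 11 tested were called lower at 24 h without and with R1881, and 2 and 2 at 72 h. Of the 5 genes of the ISG15 system, 1, 2, 2 and 2 were called in that order, and these were HERC5 and HERC6. ISG15 itself was at -0.26, 0.06, -0.34 and -0.23, and USP18, which removes ISG15 from proteins, at -0.11, -0.08, -0.37 and -0.20, with no call. Of the factors, STAT2 was at -0.05, -0.20, -0.08 and -0.18, and IRF9 at -0.48, 0.16, -0.24 and -0.10, also with no call. Of 13 membrane and entry restriction genes, 6 were tested, and IFITM3 was the 1 call. DHX58, a regulator of RNA sensing, was at 0.50, 0.33, 0.51 and 0.44 without a call.

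Several of these calls rested on single libraries, with FDR values from edgeR throughout. The IFI44 call at 24 h was lost without vehicle replicate 2 (FDR 0.0204), Senexin B replicate 2 (0.0354) or Senexin B replicate 3 (0.0148). With R1881 at 24 h, it was lost without R1881 replicate 2 (0.0241) or 3 (0.0316) and without R1881 and Senexin B replicate 2 (0.0435) or 3 (0.0206). At 72 h without R1881 it was lost without vehicle replicate 2 (0.0124) or SNX631 replicate 4 (0.0104). DDX60 was lost at 24 h without Senexin B replicate 1 (0.0241) or 2 (0.0224) and at 72 h without SNX631 replicate 1 (log2 -0.55, FDR 0.0132). HERC5 at 72 h without R1881 was lost without vehicle replicate 4 (-0.53, FDR 0.0102) or SNX631 replicate 1 (-0.50, FDR 0.0121). IFIH1 was lost without vehicle 24 h replicate 1 (-0.57) or 3 (-0.47, FDR 0.0414) or Senexin B replicate 2 (-0.53, FDR 0.011). IRF7 fell under the fold limit without vehicle 72 h replicate 2 (-0.57). IFI35 was lost without vehicle 72 h replicates 1, 3 or 4, SNX631 replicates 2 or 4, R1881 replicates 2, 3 or 4, or R1881 and SNX631 replicates 1 or 3, with the highest FDR of 0.0666 without vehicle replicate 1. The calls of IFIT2, HERC6, PARP9, IFITM3 and IFI6 stood in each of these fits. In the Wald test of DESeq2, IFI44 was lost at 24 h (FDR 0.0132 without and 0.0296 with R1881), IFI35 was lost at 72 h (0.0121), and IFIH1 was under the fold limit (-0.58). The count of 7 at 24 h became 4 without Senexin B 24 h replicate 2.

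The promoters of the set were searched for the core letters of the ISRE, read as GAAA, any 2 bases and GAAA again, on both strands. RefSeq promoter windows (GRCh38.p14, 250 bases before to 50 after the start) were matched for 44 of the 54 genes, and none was matched for DHX58, GBP2, IFIT2, IFITM2, IRF7, MX2, OAS2, OASL, TRIM22 and USP18. The core was found in at least 1 window of 30 of the 44 genes (68.2%), and in 3.57% of the 35116 windows in all. The 44 genes had 60 windows, so the first share is of genes and the second of single windows. It was present in 7 of the 9 matched genes called lower with an inhibitor, in 14 of 24 that were tested and not called, and in 9 of 11 that were not tested. The matched genes called lower without it were HERC6 and IFI35. Of the genes called in all 4 inhibitor contrasts, only IFI44 had a match, since IFIT2 had no window. The letters of the gamma-activated site (GAS), read as TTC, any 3 bases and GAA, were found in at least 1 window of 13 of the 44 genes. They were in 7.66% of all single windows. A match describes the letters in the window and is not evidence of binding. The following stretches, 5′ to 3′ along the gene's strand, are shown because they carry the core in 5 genes that fell with an inhibitor, in capitals, as written above or as its complement, in which TTTC takes the place of GAAA.
IFI44 (chr1:78649746-78649788, plus strand): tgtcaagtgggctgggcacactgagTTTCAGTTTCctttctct
DDX60 (chr4:168318769-168318867, minus strand): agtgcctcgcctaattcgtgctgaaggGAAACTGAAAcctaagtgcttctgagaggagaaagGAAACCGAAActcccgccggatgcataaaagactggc
HERC5 (chr4:88456984-88457064, plus strand): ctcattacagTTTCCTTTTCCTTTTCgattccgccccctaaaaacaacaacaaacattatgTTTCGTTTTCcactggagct
IFI6 (chr1:27672263-27672361, minus strand): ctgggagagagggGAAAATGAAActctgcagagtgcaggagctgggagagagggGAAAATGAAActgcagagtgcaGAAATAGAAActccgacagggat
IFITM3 (chr11:320870-320928, minus strand): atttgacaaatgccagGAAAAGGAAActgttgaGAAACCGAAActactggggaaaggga

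The HERC5 stretch holds 3 matches, of which the first 2 overlap, and IFI6 holds 3 and DDX60 and IFITM3 2 each. The same core stands upstream of genes that no inhibitor contrast called. ISG15 and 3 genes called for R1881 (OAS3, IFIT5 and LGALS3BP) are shown for comparison.
ISG15 (chr1:1013362-1013421, plus strand): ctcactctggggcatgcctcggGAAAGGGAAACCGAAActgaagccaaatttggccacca
OAS3 (chr12:112938422-112938473, plus strand): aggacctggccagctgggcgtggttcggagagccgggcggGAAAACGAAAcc
IFIT5 (chr10:89414511-89414567, plus strand): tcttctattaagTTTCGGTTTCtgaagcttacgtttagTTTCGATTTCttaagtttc
LGALS3BP (chr17:78979947-78980006, minus strand): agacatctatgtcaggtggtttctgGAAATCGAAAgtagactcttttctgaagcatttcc

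The second question was how androgen itself moved these genes. R1881 without inhibitor shared its vehicle libraries with the inhibitor contrasts, so the effects of androgen and inhibitor are given as separate values only. The response went in both directions. At 24 h, 5 of 38 genes fell, where 9.19% of all genes tested were called lower, and 4 rose, where 9.81% were called higher. At 72 h, 8 of 38 fell, with 10.1% of all genes called lower, and 3 rose, with 9.7% called higher. The medians over the tested genes were -0.10 and -0.09, beside -0.02 and -0.01 over all genes. The called shares of the set were 13.2% lower and 10.5% higher at 24 h, and 21.1% lower and 7.89% higher at 72 h. The higher calls at both times and the lower calls at 24 h were thus close to the background. Scaled to library totals alone, 9 fell and 3 rose at 72 h, where 13.2 and 8.08% of all genes were called lower and higher.

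HERC5 and OAS3 were the 2 genes that rose at both times. HERC5, with the values given above, rose by 1.73 ± 0.17 (edgeR FDR 1.69e-10) at 24 h and 1.69 ± 0.10 (FDR 4.15e-17) at 72 h on the log2 scale. OAS3 is a sensor of double-stranded RNA that makes the 2-5A signal. It was at 2.53, 1.27 and 2.33 CPM with vehicle and at 6.34, 5.12 and 4.75 with R1881 at 24 h. At 72 h vehicle gave 3.05, 3.59, 2.57 and 2.65 CPM and R1881 gave 5.86, 6.13, 6.51 and 5.79. The groups stood apart, with log2 fold changes of 1.35 ± 0.20 (edgeR FDR 5e-07) and 1.03 ± 0.15 (FDR 1.45e-07). The inhibitors did not call OAS3 in either experiment, and its libraries with and without inhibitor overlapped in each of the 4 contrasts. With Senexin B it was at 1.18, 2.32 and 2.06 CPM, and at 4.74, 5.54 and 4.76 with both agents. With SNX631 it was at 2.54, 3.00, 3.44 and 4.34 CPM, and at 5.03, 6.36, 6.12 and 5.06 with both. The inhibitor effects on OAS3 were -0.20 ± 0.24, -0.11 ± 0.18, 0.16 ± 0.17 and -0.10 ± 0.13 on the log2 scale.

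HERC6 rose at 72 h by 1.17 ± 0.10 (edgeR FDR 1.92e-12) and stood at 0.47 ± 0.10 (FDR 0.000123), under the fold limit, at 24 h. IFI44 rose at 24 h by 0.73 ± 0.23 (edgeR FDR 0.00779), and this call was lost without vehicle replicate 1 (FDR 0.0105) or 3 (0.133) or R1881 replicate 2 (0.0344) or 3 (0.0398). It was also lost in the Wald test of DESeq2 (FDR 0.0633) and in edgeR with library totals alone (FDR 0.0161) or a replicate block (FDR 0.0105). IFI44L rose at 24 h by 2.21 ± 0.49 (edgeR FDR 0.000266). Its vehicle libraries were at 0, 0.353 and 0.228 CPM and its R1881 libraries at 0.643, 1.32 and 1.12. IFI44L had at most 15 counts in any library, so its fold change is poorly fixed. It passed the low-count filter only through libraries with R1881, so the filter favoured a rise.

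GBP2, IFIT5 and UBE2L6 had the lowest mean R1881 effects of the genes called lower at both times. GBP2, an interferon-gamma-responsive GTPase, was at 2.82, 2.61 and 3.19 CPM with vehicle and at 1.56, 0.970 and 0.864 with R1881 at 24 h. At 72 h it was at 1.57, 2.75, 1.97 and 2.42 CPM with vehicle and at 0.942, 0.912, 1.25 and 0.615 with R1881. The groups did not overlap, and the log2 fold changes were -1.39 ± 0.24 (edgeR FDR 1.06e-05) and -1.24 ± 0.27 (FDR 0.000158). The inhibitor effects on GBP2 were -0.06, 0.31, 0.09 and 0.58 on the log2 scale, with no call. With Senexin B it was at 2.58, 2.74 and 3.20 CPM, and at 1.44, 1.82 and 1.01 with both agents. With SNX631 it was at 1.57, 2.69, 2.96 and 2.04 CPM, and at 1.04, 2.00, 1.24 and 1.25 with both.

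IFIT5 binds RNA with a 5′ triphosphate. It was at 5.16, 5.65 and 5.49 CPM with vehicle and at 3.21, 3.35 and 3.11 with R1881 at 24 h. At 72 h vehicle gave 6.61, 7.17, 6.86 and 7.73 CPM and R1881 gave 2.82, 3.15, 2.94 and 3.86. No libraries overlapped, and the log2 fold changes were -0.76 ± 0.15 (edgeR FDR 4.06e-05) and -1.15 ± 0.14 (FDR 9.5e-09). With Senexin B it was at 4.43, 4.23 and 4.27 CPM, and at 2.20, 2.87 and 2.26 with both agents. With SNX631 it was at 5.07, 5.23, 5.28 and 7.66 CPM, and at 2.87, 2.79, 3.71 and 2.71 with both. The inhibitor effects were -0.34 ± 0.13, -0.41 ± 0.19, -0.29 ± 0.12 and -0.08 ± 0.17 and none was called.

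UBE2L6, the conjugating enzyme of ISG15, was at 1.50, 2.33 and 1.88 CPM with vehicle and at 0.918, 1.32 and 1.04 with R1881 at 24 h. At 72 h it was at 3.57, 2.06, 1.46 and 2.50 CPM with vehicle and at 1.36, 1.16, 0.535 and 1.49 with R1881. Vehicle replicate 3 lay below R1881 replicate 4 at 72 h, so the groups overlapped there. The log2 fold changes were -0.80 ± 0.26 (edgeR FDR 0.00871) and -1.07 ± 0.26 (FDR 0.000598). The 24 h call was lost without any 1 of the 12 libraries other than vehicle replicate 1 and Senexin B replicate 1, with the highest edgeR FDR of 0.0516 without R1881 24 h replicate 1. The same call was also lost in the Wald test of DESeq2 (FDR 0.057) and in edgeR with no filter on low counts (FDR 0.0122). With Senexin B UBE2L6 was at 1.70, 1.41 and 1.22 CPM, and at 0.593, 0.669 and 0.859 with both agents. With SNX631 it was at 2.89, 2.92, 3.60 and 2.98 CPM, and at 1.52, 1.36, 0.894 and 1.47 with both. Within the ISG15 system the ligase HERC5 thus rose with R1881 and the conjugating enzyme UBE2L6 fell.

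**Figure D4:**
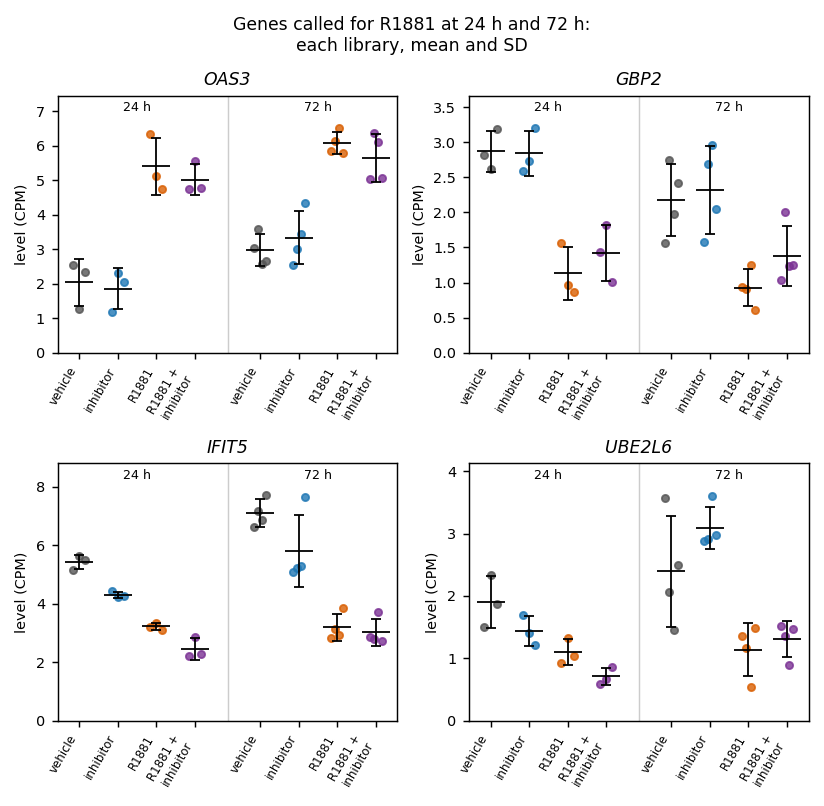
Level in CPM of OAS3, GBP2, IFIT5 and UBE2L6, called for R1881 in the same direction at 24 h and 72 h, with 1 point per library and bars for the mean and SD of each group. OAS3 is higher and the other genes are lower in the R1881 groups, with or without inhibitor.

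The remaining R1881 calls were all downward. LGALS3BP, a secreted glycoprotein, fell from 61.3 ± 0.856 to 36.1 ± 4.76 CPM (SD, n = 3) at 24 h and from 50.6 ± 1.97 to 28.2 ± 1.70 (n = 4) at 72 h. ISG20, an RNA exonuclease, fell at 24 h by 0.91 on the log2 scale (SE 0.11, edgeR FDR 1.34e-08). IRF1, a factor induced by interferon gamma, fell at 72 h from 8.07 ± 0.18 to 4.81 ± 0.444 CPM (edgeR FDR 2.69e-07). IFIH1 fell at 72 h from 11.8 ± 1.55 to 4.75 ± 0.216 CPM (log2 -1.30 ± 0.11, edgeR FDR 5.03e-13). MX1, a dynamin-like antiviral GTPase, fell at 72 h by 0.84 (SE 0.19, edgeR FDR 0.000268). SOCS1, the feedback inhibitor of JAK kinases, had the lowest log2 value of the set at 72 h, -2.33 ± 0.44 (edgeR FDR 1.88e-05), from 1.40 ± 0.311 to 0.278 ± 0.102 CPM. Its R1881 libraries held 4, 3, 3 and 2 counts, close to the floor. SOCS1 passed the low-count filter only through groups without R1881, so the filter favoured a fall with R1881. STAT2 stayed under the fold limit, at 89.7 ± 1.29 CPM with vehicle and 69.7 ± 1.18 with R1881 at 24 h, and at 94.8 ± 2.02 and 72.3 ± 2.82 at 72 h (log2 -0.37 and -0.39).

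R1881 in the presence of inhibitor gave much the same counts. At 24 h, 5 genes fell and 2 rose, where 8.9 and 9.97% of all genes were called lower and higher. At 72 h, 8 fell and 3 rose, where 12 and 10.1% of all genes were called. The called shares of the set were 13.2% lower and 5.26% higher at 24 h, and 21.1% lower and 7.89% higher at 72 h. HERC5 and OAS3 rose at both times and HERC6 at 72 h, and GBP2, IFIT5, UBE2L6, LGALS3BP and ISG20 fell at both. IFIH1, IRF1 and SOCS1 fell at 72 h. Of these, the calls that single libraries removed were those of UBE2L6, GBP2 and LGALS3BP. UBE2L6 at 24 h was lost without vehicle replicate 3, Senexin B replicate 1 or 2, or any library with both agents (highest edgeR FDR 0.0462, without Senexin B replicate 1). The Wald test of DESeq2 (FDR 0.0323) and edgeR with no filter on low counts (FDR 0.0122) also lost it. GBP2 was lost at 24 h without R1881 and Senexin B replicate 3 (edgeR FDR 0.0119). At 72 h it was lost without SNX631 replicate 2 or 3, or R1881 and SNX631 replicate 1, 3 or 4 (highest edgeR FDR 0.0353, without SNX631 replicate 3). The 72 h call of GBP2 was also lost in the Wald test of DESeq2 (FDR 0.0158). LGALS3BP dropped under the fold limit, at log2 values of -0.55 without Senexin B 24 h replicate 1, -0.54 without R1881 and Senexin B 24 h replicate 3, and -0.55 without SNX631 72 h replicate 3.

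The genes upstream of the set were then examined in a list of 30 ligands, receptors, kinases, sensors, other IRF factors and inhibitors, of which 18 were tested. None was called by edgeR with an inhibitor in any of the 4 contrasts. At an unadjusted p under 0.05 in edgeR, 5 and 4 were lower and 2 and 3 higher at 24 h without and with R1881. At 72 h, 8 and 6 were lower and 3 and 3 higher. Shares of all genes at this limit are not given. The listed ligands were not detectable at this depth, since IFNB1, IFNE, IFNK, IFNL1, IFNL2 and IFNG were at 0 in every library and IFNL3 had at most 1 count. The interferon alpha genes and IFNW1 were not in the list and were not examined. The receptor subunits for type I interferon were expressed, IFNAR1 at 93.8 to 144 CPM and IFNAR2 at 13.2 to 21.1 CPM across the libraries, and so were IFNGR1 at 27.2 to 38.5 and IFNGR2 at 29.4 to 55.8. IFNLR1, the specific receptor subunit for lambda interferons, was at 0. Of the kinases, TYK2 was at 62.0 to 79.4 CPM and JAK1 at 3.88 to 6.96 CPM. With R1881 alone, IRF5 fell at 24 h (log2 -0.59). TLR3 (-1.21) and the RNA sensor DDX58, also known as RIG-I (-0.82), fell at 72 h, and PIAS1, an inhibitor of STAT signaling, rose by 0.67.

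A further 40 interferon-stimulated genes outside the set gave few calls with the inhibitors. Of 25 tested, 1 fell at 24 h without R1881 and 1 with it, none at 72 h without R1881, and 2 with it. Among these were TYMP at 24 h without R1881 (log2 -0.66) and TRIM5 at 72 h with it (-0.72). None was called higher by edgeR. At an unadjusted p under 0.05 in edgeR, 11, 9, 11 and 13 of the 25 were lower and 4, 3, 1 and 4 higher. Shares of all genes at this limit are not given. The median log2 fold changes of the 25 genes were -0.07, -0.04, -0.07 and -0.13, beside -0.33, -0.26, -0.32 and -0.22 in the set of 54 in the same order of contrasts. SLFN5, a Schlafen family member, fell with R1881 at both times, by 1.02 and 1.36 on the log2 scale. CXCL10, CXCL11, CCL5, TNFSF10, IFI16, NMI, RTP4, LAMP3, BATF2, SLFN11 and SLFN12 were at the floor in every library.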

How the data were processed

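Total RNA from LNCaP cells was sequenced from directional libraries, 28 in all. The authors deposited expected counts per gene, not scaled to depth. Of the values above 0, 16.9% were fractional, so some reads were counted in part. Per the submitters' processing notes, FastQC, cutadapt 2.8, STAR 2.7.2b and featureCounts (Subread 2.0.3) were used, and the human build is GRCh38.p13; the annotation release and strand setting are not given in the sources used here. Fractional counts were frequent for IFITM1 (85.7% of libraries) and IFITM2 (75%), which are paralogs, and for IRF9 (53.6%) and IFI6 (46.4%), so these values are less certain. Of genes on opposite strands, PARP9 and DTX3L, CMPK2 and RSAD2, IFIT2 and LIPA, and SOCS1 and RMI2 overlap.

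Counts were rounded. The 24 h and 72 h libraries were fitted separately, 4 groups at a time, in edgeR 4.0.16 (R 4.3.3; quasi-likelihood test, TMM, low counts removed by filterByExpr at 10 counts and 15 in total, Benjamini-Hochberg FDR over 15948 genes at 24 h and 16074 at 72 h). CPM are TMM-scaled within an experiment. The common biological coefficient of variation was 2.72 and 2.38%. The SE is that implied by the test. The 36 replicate pairs all differed by more than sampling noise. Depth sets the precision, and libraries held 9846595 to 33809419 counts. A floor of 3 counts and all errors from depth cover counting error only.

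The genes, lists, roles and tests were chosen with earlier results of these data known. Values per library are given for genes called in at least 2 of 4 inhibitor contrasts, for called interactions, and for the 3 highest and 3 lowest by mean R1881 effect called the same way at both times (only 2 rose at both). IFI44L was added after its values were seen. Exon lengths are from GENCODE 29, and promoter sequences from RefSeq (GRCh38.p14). Alternatives were other scalings, DESeq2 1.42.0 (Wald), other low-count filters and call limits, a replicate block, and leaving out each library. The same-numbered libraries did not deviate together. The fits were tested on simulated data. Results for a few genes are not reported here.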

Additional observations from a re-analysis of the deposited data

Results flagged for a closer look

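With 4 libraries in a group, 7 of 84 groups tested held a library far from the others, where chance flags about 1 in 20. HERC5 was at 12.1 CPM in R1881 72 h replicate 4, below the other 3. IFI44L was at 0.611 CPM in vehicle 72 h replicate 2, above the others. IFIT5 was at 7.66 CPM in SNX631 72 h replicate 4 and at 3.71 CPM in R1881 and SNX631 72 h replicate 3, each the highest of its group. In SNX631 72 h replicate 3, IFITM3 was at 22.1 CPM and UBE2L6 at 3.60 CPM, again the highest. SOCS1 was at 0.619 CPM in R1881 and SNX631 72 h replicate 3, above the other 3 libraries.

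The effect of SNX631 on HERC5 differed between cells with and without R1881 at 72 h, by -0.75 on the log2 scale in the interaction test of edgeR (FDR 0.00285), with the fall being greater with R1881.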

How the results depend on the processing

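Of 64 calls of a gene in a contrast, 47 stood when any 1 library was left out, and none reversed. Under the other scalings, tests and filters 55 stood wherever the gene was tested, but 25 of the 64 could not be tested at a minimum count of 50. Leaving out 1 library gave 4 to 7 and 3 to 4 genes called lower with the inhibitor at 24 h without and with R1881, and 7 to 9 and 5 to 7 at 72 h, with 0 to 0 higher throughout. For R1881 without inhibitor it gave 4 to 6 lower and 3 to 5 higher at 24 h, and 8 to 9 and 3 to 4 at 72 h. With inhibitor it gave 2 to 6 lower and 2 to 4 higher at 24 h, and 6 to 8 and 3 to 4 at 72 h. The interaction gave 0 to 0 at 24 h, and 0 to 1 lower and 0 to 0 higher at 72 h. With the limits relaxed to an FDR of 0.05 and any fold, the inhibitor lowered 20 and 12 genes at 24 h and 17 and 18 at 72 h, and raised 1, 2, 1 and 1. The shares of all genes were 17.1, 15, 17.4 and 20.6% lower and 18.7, 17.9, 19 and 22.2% higher. R1881 alone then lowered 16 and 14 and raised 8 and 5, beside 28.2 and 30.4% of all genes lower and 30.1 and 31.7% higher. With inhibitor it lowered 10 and 12 (27.2 and 32.5% of all genes) and raised 8 and 11 (30.2 and 33.2%). The interaction gave 2 higher at 24 h (2.34%) and 2 lower and 3 higher at 72 h (7.1 and 5.56%). A minimum count of 50, which removes the low genes, left 4, 2, 5 and 3 lower with the inhibitor, 3 and 5 lower with R1881 alone and 2 higher at 24 h, and 3 and 5 lower with R1881 in the presence of inhibitor. With no filter, R1881 in the presence of inhibitor raised 4 genes at 24 h and 6 at 72 h. The DESeq2 Wald test called 0 interactions lower at 72 h, where 1 had been called.

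Replicate numbers did not pair the libraries, since the correlation of same-numbered deviations spanned -0.0957 to 0.344 (24 h) and -0.239 to 0.156 (72 h). With a replicate block, R1881 raised 3 genes at 24 h without inhibitor (IFI44 lost, FDR 0.0105) and 3 with inhibitor, and the block changed no other count of genes. Scaling to library totals alone gave summed levels of 1167 (vehicle), 1024 (R1881) and 921 CPM (both) at 24 h, and 1183, 1007 and 904 at 72 h. It moved the median log2 change of all genes for R1881 at 72 h from -0.01 to -0.12, both without and with inhibitor. Without ADAR the sums were 732, 639, 675 and 617 CPM at 24 h (vehicle, Senexin B, R1881, both), and 716, 604, 644 and 577 at 72 h. Depth limits the low genes most, since 14 of 54 could not be tested.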
